A study of Mus musculus with 7 samples.

Results

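Integrins are the receptors through which fibroblasts hold on to the extracellular matrix, and 10 integrin subunit genes were followed here in mouse embryonic fibroblasts (MEFs) under stress. They were taken by gene symbol from the 49382 genes of the expression table, and comprised 6 alpha subunits (Itga1, Itga3, Itga5, Itga6, Itga11 and Itgav) and 4 beta subunits (Itgb1, Itgb3, Itgb5 and Itgb7). Each symbol stood on a single row. The cells were wild-type primary MEFs, per the labels from embryos of embryonic day 13.5 to 14.4, freed of head and red tissue and used at passage 3 to 7. The study's methods add that MEFs were sorted against leukocyte and macrophage surface markers unless noted, a step the labels do not mention. The cells are therefore a mixed culture from most of the body and not a clonal line.

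RNA-seq was available for 7 libraries. The control library came from MEFs that received no stress, and its time in culture beside the treatments is not given in the sources used here. Oxidative stress was 10 μM sodium arsenite (NaAsO2) and osmotic stress was 100 mM added NaCl, both for 3 hours. ER stress was 1 μM thapsigargin, glucose depletion and glutamine depletion were the respective dropout media, and hypoxia was 0.1% oxygen, all for 10 hours. Each condition is 1 library, so a difference between conditions cannot be set against any spread between cultures, no p-value is given, all 6 comparisons use the same control library, and the length of a treatment cannot be told apart from its kind. The deposited values are TPM (transcripts per 1000000), a share of the library corrected for transcript length, which allows levels of different genes to be compared. TPM keeps no read count, so the depth behind each value is unknown. Changes are given as log2(TPM + 1) in a condition minus the control, which makes the change of a weakly expressed gene look smaller than it is. A gene was counted when its change on this scale exceeded 2-fold.

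An integrin is a heterodimer of 1 alpha and 1 beta chain, and the alpha chain largely sets which matrix protein is bound. Itgb1 is the common partner of most alpha chains of fibroblasts, and Itgb3 and Itgb5 are among the partners of Itgav. Ligand-bound integrins recruit talin, kindlin, vinculin and focal adhesion kinase to their short cytoplasmic tails and so couple the matrix to actin. Transcript levels do not give the number of heterodimers at the cell surface.

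The identity of the cells was read from marker genes. All 11 fibroblast markers passed the expression filter (an average of 2 TPM or more across libraries), and their summed level lay between 6466 TPM in ER stress and 15906 TPM in osmotic stress. Of 11 leukocyte markers, 7 were under 1 TPM in every library, among them Ptprc, which reached at most 0.280 TPM, and Cpa3 was listed at 0 throughout. The others were Cd68, the 1 that passed the filter, at 5.26 to 9.77 TPM, Csf1r at 0.744 to 2.25, Coro1a at 0.171 to 1.74 and Cd79a at 0 to 2.62 TPM. The summed level was 7.57 to 17.3 TPM for the leukocyte markers, 4.09 to 9.07 TPM for 6 endothelial markers and 4.04 to 12.0 TPM for 6 epithelial markers. The muscle list summed to 51.0 to 187 TPM through Acta1 and Des, with Myod1, Myog and Myh3 under 1 TPM.

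The subunits covered a wide range of levels. In the control library Itgb1 was the most abundant at 925 TPM, followed by Itgb5 at 222, Itga5 at 201, Itgav at 110.3, Itga11 at 53.0, Itga6 at 39.6, Itga3 at 18.0, Itgb3 at 14.4, Itga1 at 6.27 and Itgb7 at 0.959 TPM. Without replicates it cannot be said which neighbours in this order differ beyond their spread. Itga5 stood above Itgb5 under glutamine depletion, glucose depletion and oxidative stress and below it in the other 4 libraries. The 10 genes held most of the integrin transcripts, since the 4 beta genes made up 99.4% to 99.7% of the summed TPM of all beta subunits and the 6 alpha genes 80.8% to 93.0% of that of all alpha subunits.

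**Figure D1:**
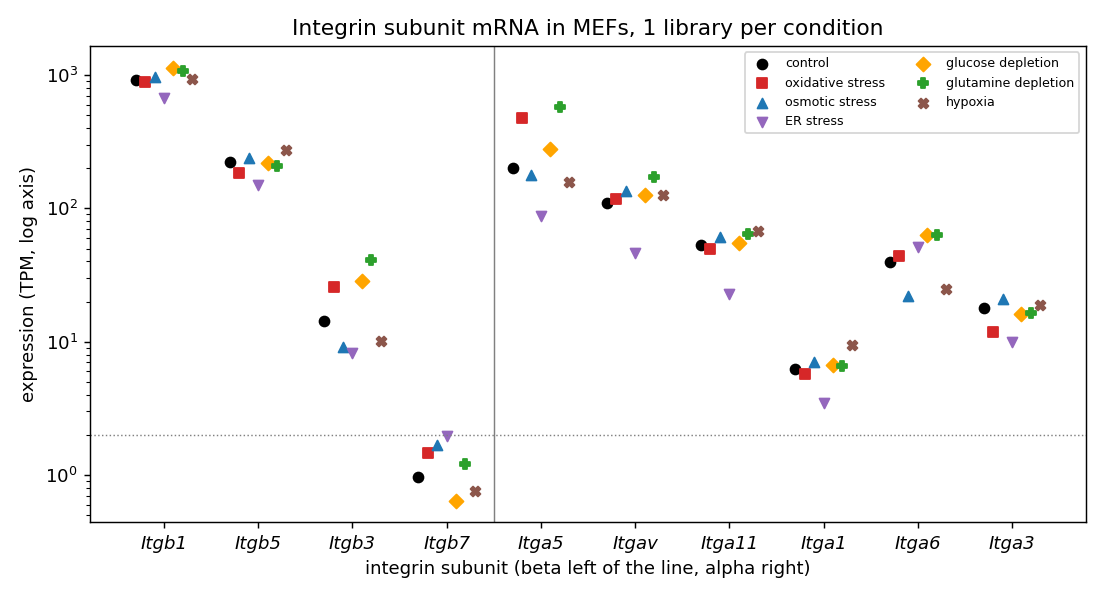
Expression of the 10 integrin subunits (TPM, log axis), with 1 marker per library and the dotted line at 2 TPM. Itgb1 stays between 677 and 1138 TPM, Itga5 spreads from 88.2 to 575 TPM, and Itgb7 lies below the line in every library.

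Of the 10 subunits, 9 passed the filter, and these 9 were above 2 TPM in every library, so none passed through a single condition. Itgb7 did not pass. Of the 54 combinations of a subunit with a condition, 6 were past 2-fold, and 4 subunits, namely Itga5, Itgav, Itga11 and Itgb3, were past it in at least 1 condition. The share of all genes past 2-fold was 1.83% to 11.0% for a single condition and direction. The counts of combinations and of subunits pool conditions and directions, so they cannot be read against that share. No pooled share of all genes was computed, and the counts per condition are set beside their own shares below. Itga1, Itga3, Itga6, Itgb1 and Itgb5 were within 2-fold of the control in all 6 conditions. The 6 were Itga5 and Itgb3, higher in glutamine depletion, Itga5, higher in oxidative stress, and Itga5, Itgav and Itga11, lower in ER stress. In oxidative stress 4 of the 9 subunits were above the control and 5 below it, and the sign of Itgb1, Itga11, Itga1 and Itgav there depended on the scaling or reference.

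**Figure D2:**
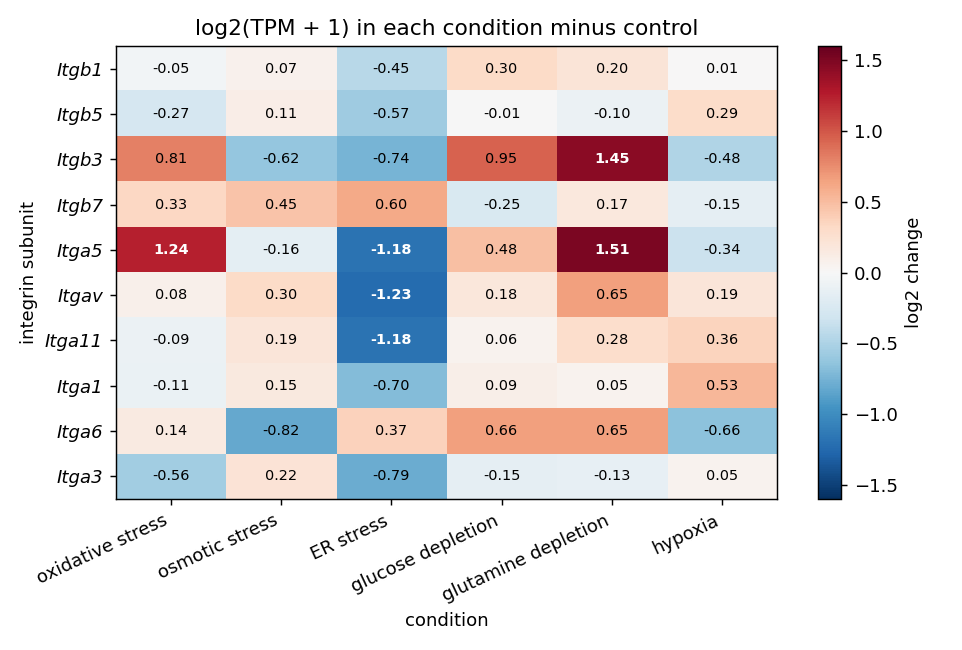
Change of each integrin subunit against the control library, as log2(TPM + 1), in each of the 6 conditions, with changes past 2-fold in bold. Itga5 is past 2-fold in 3 conditions and in both directions, and the ER stress column is negative for 8 of the 9 subunits that passed the filter.

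The upstream sequences of the 3 subunits that were low together in ER stress are shown with that of Itgb1, the most even subunit, for comparison. They come from the RefSeq promoter table for GRCm38.p6, which held 8 of the 10 genes and neither Itgb3 nor Itga6. Each run is written 5′ to 3′ on the strand of the gene and ends before the first transcript start. That of Itga5 is chr15:103366792-103367041 (minus strand), that of Itgav chr2:83724147-83724396 (plus), that of Itga11 chr9:62677605-62677825 (plus) and that of Itgb1 chr8:128685404-128685653 (plus). Capitals mark the one motif match found.

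Itga5: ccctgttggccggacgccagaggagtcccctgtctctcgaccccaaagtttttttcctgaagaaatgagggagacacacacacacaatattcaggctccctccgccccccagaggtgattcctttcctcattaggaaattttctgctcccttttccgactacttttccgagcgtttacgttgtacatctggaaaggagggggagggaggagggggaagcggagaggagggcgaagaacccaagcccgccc
Itgav: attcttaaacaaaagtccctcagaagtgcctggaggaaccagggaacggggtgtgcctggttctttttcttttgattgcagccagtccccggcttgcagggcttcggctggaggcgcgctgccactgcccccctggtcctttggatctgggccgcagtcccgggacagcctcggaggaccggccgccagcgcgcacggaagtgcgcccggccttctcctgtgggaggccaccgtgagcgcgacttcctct
Itga11: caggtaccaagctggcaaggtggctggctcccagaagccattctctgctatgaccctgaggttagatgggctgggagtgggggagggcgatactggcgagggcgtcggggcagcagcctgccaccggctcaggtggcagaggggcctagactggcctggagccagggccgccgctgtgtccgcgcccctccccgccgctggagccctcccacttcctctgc
Itgb1: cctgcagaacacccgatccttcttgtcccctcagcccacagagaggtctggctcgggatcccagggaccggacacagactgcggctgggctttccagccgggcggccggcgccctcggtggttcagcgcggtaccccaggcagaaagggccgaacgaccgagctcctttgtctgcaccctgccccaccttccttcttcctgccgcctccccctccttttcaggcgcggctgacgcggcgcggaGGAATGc

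The windows from 250 bases before to 50 bases after the RefSeq start were searched on both strands for 6 motifs. No match was found in the 8 integrin windows for the AP-1 motif TGANTCA (present in 7.81% of all 32851 windows of this length), the cAMP response element TGACGTCA (1.79%), the ATF4 element TGATGNAA (3.97%), the HIF core ACGTG (19.6%) or the CArG box of serum response factor (1.63%). The TEAD motif GGAATG, bound by the partners of YAP1, was found in 1 window, that of Itgb1, and in 14.7% of all windows. These letters are a description of a short window and say nothing of distal elements or of binding.

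Itga5 encodes the alpha chain of the classical fibronectin receptor, which recognizes the RGD sequence, and lies on chromosome 15 from 103344286 to 103366763 on the minus strand (GRCm38). It stood at 575 TPM in glutamine depletion, 476 in oxidative stress, 281 in glucose depletion, 201 in the control, 179 in osmotic stress, 158 in hypoxia and 88.2 in ER stress. Its range over the libraries was the widest of the 10 subunits, 6.52-fold from lowest to highest. Against the control the level was 2.86 times as high in glutamine depletion (log2 change 1.51) and 2.37 times as high in oxidative stress (1.24). Among the 12909 genes that passed the filter these changes stood at the 98.3 and 97.1 percentile. In ER stress the level was 0.439 times that of the control (-1.18), at the 8.14 percentile. Its changes in glucose depletion (0.48), osmotic stress (-0.16) and hypoxia (-0.34) were within 2-fold. The 2 highest libraries are a 10-hour nutrient depletion and a 3-hour arsenite exposure, and the nutrient depletion of the same length without glucose lies closer to the control than to them.

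Itgb3, the beta chain that joins Itgav in the vitronectin receptor, had the next widest range, 5.01-fold. It lies on chromosome 11 from 104608000 to 104670476 on the plus strand. Its level was 41.1 TPM in glutamine depletion, 28.7 in glucose depletion, 25.9 in oxidative stress, 14.4 in the control, 10.1 in hypoxia, 9.05 in osmotic stress and 8.20 in ER stress. Only glutamine depletion was past 2-fold (2.85 times the control, log2 change 1.45, 98.1 percentile). In glucose depletion the log2 change of 0.95 was just short of 2-fold and stood at the 98.1 percentile. Oxidative stress gave 0.81. The 3 libraries with the most Itga5 were also those with the most Itgb3.

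Itgav, the alpha chain shared by the vitronectin receptors, is on chromosome 2 from 83724397 to 83806916, plus strand. It had 173 TPM in glutamine depletion, 136 in osmotic stress, 126 in hypoxia, 125 in glucose depletion, 117 in oxidative stress, 110.3 in the control and 46.6 in ER stress. It differed from Itga5 in oxidative stress, where its log2 change was 0.08, and its ER stress level of 0.422 times the control (-1.23, 7.59 percentile) was the most negative change of the 9 subunits in any condition. Itgb5, another of the partners of Itgav, lies on chromosome 16 from 33829665 to 33949338 and varied less. It ranged from 149 TPM in ER stress to 272 TPM in hypoxia, and its log2 changes lay between -0.57 and 0.29. The ratio of Itgb5 to Itgb3 TPM therefore went from 15.4 in the control to 5.03 in glutamine depletion, 7.09 in oxidative stress and 7.65 in glucose depletion, and to 27.1 in hypoxia and 26.4 in osmotic stress. Part of the Itgb5 reads cannot be assigned with certainty, since 7.86% of the 31-base words of its transcripts also occur in the processed pseudogene Gm38317. Gm38317 was listed at 74.5 TPM in the control, 30.2 in ER stress and 118 in hypoxia, the latter 2 being the libraries where Itgb5 was lowest and highest. In oxidative stress Gm38317 was above its control (99.1 TPM) and Itgb5 below its own (184 against 222 TPM). In osmotic stress Gm38317 was below its control (70.8 TPM) and Itgb5 above (239 TPM).

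Itga11 and Itga1 encode alpha chains of collagen receptors, of which Itga11 is typical of mesenchymal cells and binds fibrillar collagen. Itga11, on chromosome 9 from 62677826 to 62783982, stood at 68.2 TPM in hypoxia, 64.8 in glutamine depletion, 60.7 in osmotic stress, 55.3 in glucose depletion, 53.0 in the control, 49.7 in oxidative stress and, lowest, 22.9 in ER stress. Only the ER stress library was past 2-fold (0.432 times the control, log2 change -1.18, 8.15 percentile), and the other 6 lay within 49.7 to 68.2 TPM. Itga1, on chromosome 13 from 114953096 to 115101964, had a similar order at a lower level, the ratio of Itga11 to Itga1 TPM being 6.57 to 9.92. Its highest value was 9.46 TPM in hypoxia (log2 change 0.53, 91.6 percentile) and its lowest 3.48 TPM in ER stress (-0.70). In the annotation used for gene positions, exons of Itga1 overlap those of Gm49395, a gene on the same strand. Of the 31-base words of Itga1, 3.56% occur in other genes, chiefly Gm49395, which the expression table does not list under that name.

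Itga3 and Itga6 encode alpha chains of laminin receptors, and their patterns differed. Itga6, on chromosome 2 from 71745616 to 71858416, was the single subunit of the 9 with a positive change in ER stress (0.37). It had 63.4 TPM in glucose depletion, 63.0 in glutamine depletion, 51.6 in ER stress, 43.8 in oxidative stress, 39.6 in the control, 24.7 in hypoxia and 22.0 in osmotic stress. Its log2 changes of 0.66 in glucose depletion, -0.66 in hypoxia and -0.82 in osmotic stress were within 2-fold, and stood at the 97.0, 6.11 and 12.3 percentile. Itga3, on chromosome 11 from 95044474 to 95076801, ranged from 9.98 TPM in ER stress to 21.0 TPM in osmotic stress, with its lowest changes in ER stress (-0.79) and oxidative stress (-0.56). The ratio of Itga6 to Itga3 TPM was 2.20 in the control, 5.16 in ER stress and 1.05 in osmotic stress. The summed epithelial markers were highest in ER stress (12.0 TPM) and lower in osmotic stress (4.78 TPM) and hypoxia (4.04 TPM) than in the control (6.34 TPM), mainly through Krt18. In glucose depletion, where Itga6 was highest, they summed to 6.69 TPM, and their part in the Itga6 values was not tested. Of the 31-base words of Itga6, 6.20% occur in other genes, chiefly the processed pseudogene Gm29397. Gm29397 was listed at 4.33 TPM in the control, 0 in hypoxia and 2.34 in osmotic stress, the latter 2 being the libraries where Itga6 was lowest. It was at 14.9 TPM in glutamine depletion and 5.02 in glucose depletion, where Itga6 was nearly equal. The part of Gm29397 in the Itga6 values was not tested.

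Itgb1, on chromosome 8 from 128685654 to 128733200, was the most even of the 10 subunits. It had 1138 TPM in glucose depletion, 1064 in glutamine depletion, 972 in osmotic stress, 931 in hypoxia, 925 in the control, 893 in oxidative stress and, lowest, 677 in ER stress, a range of 1.68-fold. Its log2 changes lay between -0.45 and 0.30, and it made up 76.7% to 82.0% of the summed TPM of the 4 beta genes in every library. Itgb7, a beta chain of lymphocytes and mast cells, on chromosome 15 from 102215995 to 102231944, was between 0.643 TPM in glucose depletion and 1.97 TPM in ER stress. Its partner chains were as low, with Itga4 at 1.10 to 2.07 TPM and Itgae at 0 to 0.233 TPM. At these levels the depth, which is unknown, may not allow a difference to be seen.

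The balance of alpha to beta transcripts differed between libraries, and Itga5 varied more than Itgb1. In ER stress Itgav (46.6 TPM against 110.3 in the control) and Itga11 (22.9 against 53.0 TPM) were lower as well. The summed TPM of the 6 alpha genes was 428 in the control, 899 in glutamine depletion, 703 in oxidative stress, 548 in glucose depletion, 426 in osmotic stress, 405 in hypoxia and 223 in ER stress. Divided by Itgb1 this gave 0.845 in glutamine depletion, 0.788 in oxidative stress, 0.463 in the control and 0.329 in ER stress. Itga5 alone made up 46.9% of the alpha sum in the control, 67.6% in oxidative stress, 64.0% in glutamine depletion and 39.1% in hypoxia. In ER stress the share of Itga6 was 23.2%, against 9.26% in the control.

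**Figure D3:**
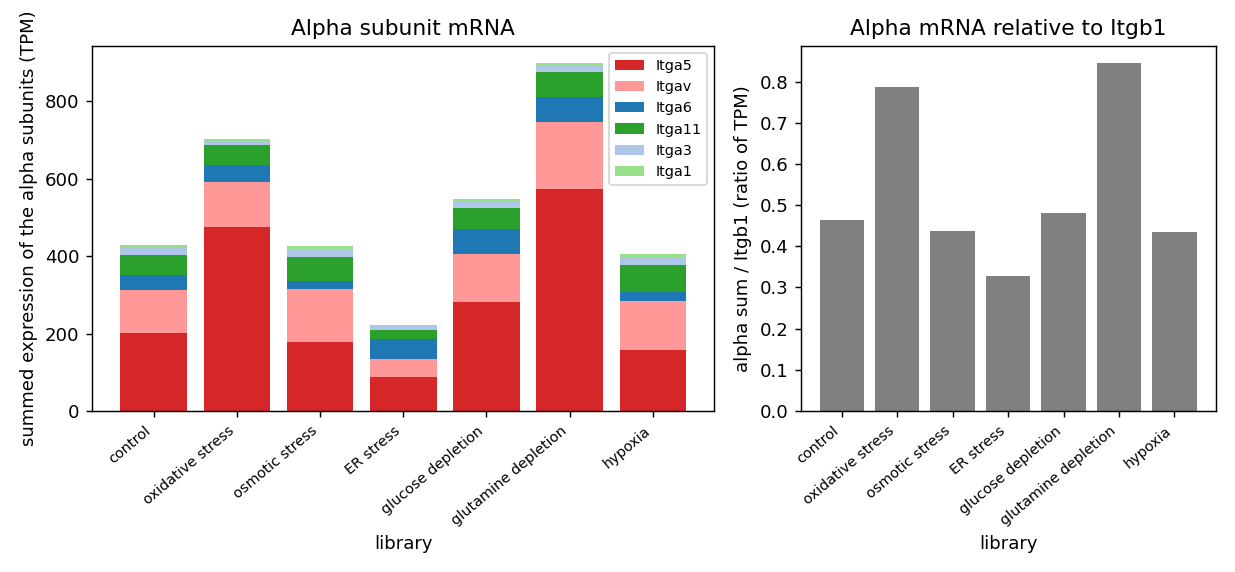
Summed expression of the 6 alpha subunits by library (TPM, stacked bars, left) and the ratio of that sum to Itgb1 (bars, right). The sum is highest in glutamine depletion (899 TPM) and oxidative stress (703 TPM), mostly through Itga5, and lowest in ER stress (223 TPM).

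Set beside all 12909 genes, the subunits stood out to different degrees. In glutamine depletion 2 of the 9 subunits, Itga5 and Itgb3, were more than 2-fold higher and none was lower, where 3.21% of all genes were higher and 3.21% lower. The median log2 change of the 9 was 0.28, against -0.09 for all genes. In oxidative stress Itga5 was the 1 subunit past 2-fold, where 3.94% of all genes were higher and 4.85% lower, and the medians were -0.05 and -0.16. Of the protein-coding genes alone, to which all 10 subunits belong, 1.89% were more than 2-fold higher in glutamine depletion and 1.79% in oxidative stress.

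In ER stress 3 of the 9 subunits, Itga5, Itgav and Itga11, were more than 2-fold lower and none was higher, where 11.0% of all genes were lower and 8.60% higher. The median of the 9 was -0.74 against 0.00 for all genes, and 8 of the 9 were below 0. The fibroblast markers were low in the same library. All 11 fibroblast markers were below the control, with a median of -0.86, and 4 of them (S100a4, Lum, Col3a1 and Pdgfrb) were more than 2-fold lower. The part of this in the integrin values was not tested, and fewer fibroblasts and less of these RNAs per fibroblast cannot be told apart in bulk RNA.

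No subunit was past 2-fold in the other 3 conditions. The shares of all genes were 1.83% higher and 2.41% lower in glucose depletion, 3.08% higher and 8.76% lower in osmotic stress, and 3.57% higher and 2.64% lower in hypoxia. The medians of the 9 subunits were 0.18, 0.11 and 0.05, against -0.02, -0.12 and -0.05 for all genes.

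**Figure D4:**
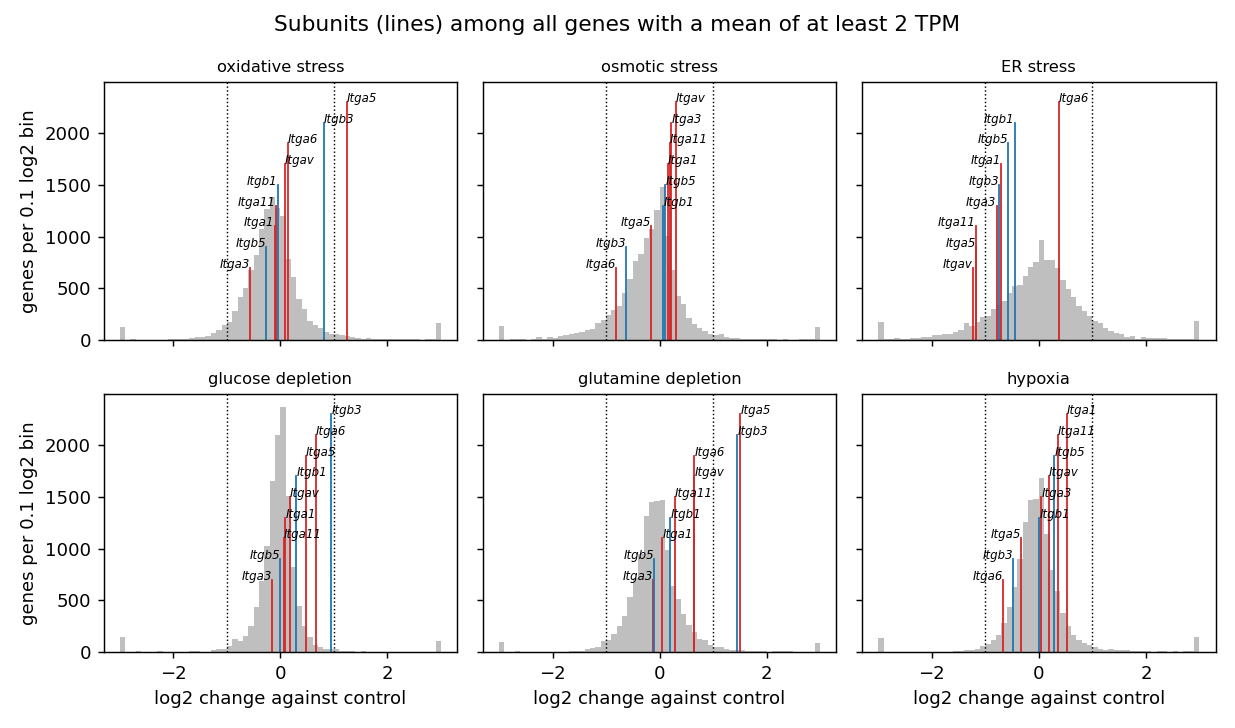
Log2 change of all 12909 filtered genes in each condition (grey histogram, end bins hold values beyond the axis) with the 9 integrin subunits as lines (red alpha, blue beta, heights arbitrary) and dotted lines at 2-fold. Itga5 and Itgb3 lie in the right tail in glutamine depletion, and 8 of the 9 lines lie left of 0 in ER stress.

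The remaining integrin subunits were mostly low. Of 16 further subunits in the table, 7 passed the filter. Itga7, Itga8 and Itga9 were the highest, with 16.0 to 26.9, 14.8 to 19.7 and 5.52 to 15.8 TPM. Itga2, the alpha chain of another collagen receptor, was at 0.702 TPM in the control, 0.806 in osmotic stress and 0.592 in hypoxia, but at 6.00 in ER stress, 5.30 in glutamine depletion, 3.03 in glucose depletion and 2.16 in oxidative stress. Its log2 changes of 2.04 in ER stress, 1.89 in glutamine depletion and 1.24 in glucose depletion were past 2-fold. It passed the filter through these libraries, so these calls follow in part from the filter. Itga10, a further collagen-binding chain, did not pass the filter (0.874 to 2.38 TPM). Itga2b, the platelet chain that pairs with Itgb3, went from 4.64 TPM in the control to 1.39 TPM in ER stress (-1.24). Itgb4 (1.57 to 3.54 TPM) and Itgb8 (1.47 to 3.89 TPM) were within 2-fold in every condition.

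A list of adhesion genes, among them those that link integrins to actin, was counted in the same way. Of 39 adhesion genes that passed the filter, 7 were more than 2-fold lower and 1 higher in ER stress, where 11.0% of all genes were lower and 8.60% higher, and their median log2 change was -0.32 against 0.00 for all genes. The 4 with the largest changes were Ptk2b, a relative of focal adhesion kinase (23.7 TPM in the control and 5.72 in ER stress, -1.88), Vcl, which encodes vinculin (314 and 89.6 TPM, -1.80), Tns1, a tensin (88.6 and 25.7 TPM, -1.74), and Tes, a LIM protein of focal adhesions, which was higher (56.7 and 187 TPM, 1.71). In glutamine depletion 31 of the 39 were above the control with a median of 0.24, and 1 was past 2-fold, the actin elongation factor Enah (76.3 and 199 TPM, 1.37), where 3.21% of all genes were higher. Vcl had 518 TPM in that library (0.72). In oxidative stress none was past 2-fold, and Enah came closest (0.96). Kank2 was lower in osmotic stress (-1.23), like 8.76% of all genes, and Lims2 higher in hypoxia (1.36), like 3.57%, and no adhesion gene was past 2-fold in glucose depletion.

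Of 27 genes for integrin ligands, 4 were more than 2-fold lower in ER stress and none higher, a share near the 11.0% of all genes that were lower, and their median was -0.54 against 0.00. They were Col3a1 (1479 TPM in the control and 352 in ER stress, -2.07), the basement membrane protein Nid1 (251 and 68.3 TPM, -1.86), the adhesive glycoprotein Thbs1 (4422 and 1305 TPM, -1.76) and Npnt, a ligand of the receptor formed by Itga8 and Itgb1 (9.24 and 3.30 TPM, -1.25). Fn1, the fibronectin gene and main ligand of Itga5, was at 2742 TPM in the control and 2599.6 in ER stress, and at 3878 in glutamine depletion and 3589 in oxidative stress (log2 changes -0.08, 0.50 and 0.39). Ctgf, a matricellular ligand, was the 1 ligand gene past 2-fold in glutamine depletion (1177 and 3307 TPM, 1.49), where 3.21% of all genes were higher, with 1961 TPM in oxidative stress (0.74) and 628 TPM in ER stress (-0.91), the same 3 directions as Itga5. Enah, Kank2, Lims2, Npnt and Fn1 were named after their values were seen.

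The genes whose pattern was most like that of Itga5 over the 7 libraries were Pdlim5 (Pearson r of log2(TPM + 1) 0.996), Mical2 (0.990) and Fgl2 (0.989). Pdlim5 is a LIM protein of actin fibres and went from 126 TPM in ER stress to 325 TPM in glutamine depletion, and Mical2, an actin-oxidizing enzyme, from 30.4 to 158 TPM. Fgl2 was low, with 0.101 to 4.20 TPM. It passed the filter through glutamine depletion (4.20 TPM) and oxidative stress (3.91 TPM), the libraries where Itga5 was highest, so its likeness follows in part from the filter. Of 12908 genes, 115 (0.891%) had an r of at least 0.9 with Itga5. These values are a description of 7 libraries on a common scale.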

How the data were processed

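RNA of 7 MEF cultures, 1 per condition, was sequenced by the authors. They pseudoaligned the reads to mouse cDNA (GRCm38, Ensembl release 90) with kallisto 0.43.1, as the submitters' processing notes name it, at default settings, from stranded libraries, and deposited TPM values summed per gene; each library sums to 1000000. Read depth is not given in the sources used here, so no interval could be computed. Reads shared between genes are split by estimate, which touches Itgb5, Itga6 and Itgav most. The shared words of Itga1 lie chiefly in Gm49395, a gene that the deposited values do not list under that name.

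From these values log2(TPM + 1) differences from the 1 control library were computed (Python 3.11.15, pandas 2.3.3, numpy 2.4.6). All 6 comparisons share that control. Genes averaging 2 TPM or more over all libraries were kept (12909), and changes over 2-fold counted. The counting was run on simulated data with changes far larger than 2-fold. That run checks the computation and says nothing of calls near 2-fold or of spread between cultures. No replicate exists, so no test was made. The integrin genes and lists were chosen with earlier results of these data known. Named were all 10 subunits, other subunits over the filter, at most 4 genes past 2-fold per adhesion and ligand list by size of change, and the 3 genes most correlated with the subunit of widest range. Alternatives covered the pseudocount, fold, filter, scaling, reference library and gene type. Gene positions and shared 31-base words came from GENCODE M21 on GRCm38.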

Additional observations from a re-analysis of the deposited data

How the results depend on the processing

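No change past 2-fold turned its direction. Of 342 recomputed medians and subunit changes 8 changed sign, all close to 0. In oxidative stress, centring on the median of all genes took the subunit median from -0.05 to 0.10, Itgb1 from -0.05 to 0.10, Itga11 from -0.09 to 0.07 and Itga1 from -0.11 to 0.04, the median was 0.01 with no filter or with a mean of at least 10 TPM, and Itgav went from 0.08 to -0.10 against the median of the 7 libraries. Itgb5 in glucose depletion went from -0.01 to 0.01 with centring. A count was taken as stable within 1.5 times its value, a median within 0.1 log2 units, and a subunit's change if it stayed on its side of 2-fold. All 300 recomputed subunit changes did so under the other pseudocounts, scalings and reference, as did 99 of 108 counts of subunits and 37 of 42 medians. Most of these counts were 0 at 2-fold. Every count above 0 moved with both other fold thresholds, and no count moved with any other setting. With a 1.5-fold threshold the counts were 2 higher in oxidative stress, 2 lower in osmotic stress, 6 lower in ER stress, 2 higher in glucose depletion, 4 higher in glutamine depletion and 1 lower in hypoxia. With a 3-fold threshold they were 0 in oxidative stress, 0 in ER stress and 0 in glutamine depletion. Centring on the median of all genes gave subunit medians of 0.10 in oxidative and 0.23 in osmotic stress, a pseudocount of 5 TPM gave -0.56 in ER stress, the median of the 7 libraries as reference gave 0.04 in glucose depletion, and a mean of at least 10 TPM gave 0.46 in glutamine depletion. The share of all genes past 2-fold moved in 29 of 48 cases with the filter, scaling or gene type. No paired analysis was possible because each condition is 1 library. For the same reason no replicate could be left out, and the unknown depth limits the genes under about 2 TPM most.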

Other observations

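Several integrin subunits of leukocytes, listed below the expression filter, had their highest value in the osmotic stress library. Others below the filter had theirs elsewhere. Itgae was highest in the control (0.233 TPM), Itga4 in hypoxia (2.07 TPM), Itgal in glucose depletion (0.0872 TPM) and Itgb7 in ER stress (1.97 TPM). Itgax was listed at 0 in the control and at 1.51 TPM in osmotic stress, and Itgad at 0.556 and 2.89 TPM, with 2.88 TPM in ER stress as well. Itgam stands on 2 rows of the table, at 0.0317 and 0 TPM in the control and at 0.944 and 1.99 TPM in osmotic stress. The B-cell gene Cd79a was at 0.109 and 2.62 TPM, whereas Ptprc was listed at 0 in both libraries and Itgb2, the beta chain of Itgam, Itgax and Itgad, was at 0.632 and 0.742 TPM. The summed leukocyte markers were 11.1 TPM in the control and highest in osmotic stress, at 17.3 TPM. Among them Fcer1g (0.525 and 0.309 TPM) and Kit (0.0954 and 0 TPM) were lower in osmotic stress than in the control. Higher there were Cd68 (7.21 and 9.36 TPM), Csf1r (1.43 and 2.25 TPM), Laptm5 (0.116 and 0.826 TPM) and Coro1a (1.58 and 1.74 TPM). So were Adgre1 (0.0479 and 0.110 TPM) and Cd3e (0 and 0.0682 TPM). The genes named here were singled out after their values were seen.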
